A study of Caenorhabditis elegans with 3 samples.

Results

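Intronic ELT-3 peaks are places where the authors called enrichment of DNA with the transcription factor ELT-3 inside protein-coding genes, between exons and away from gene starts. They were chosen by the position of the summit, the base of highest signal in a peak, in the list of 1202 peaks that passed the authors' reproducibility filter (irreproducible discovery rate, IDR). A summit counted as intronic when it was inside a protein-coding gene, outside every exon, and outside every promoter window, which ran from 1000 bp upstream to 200 bp downstream of a gene's 5′ end. This gave 276 intronic peaks of 1202 (22.96%, 95% exact Clopper-Pearson interval 20.6 to 25.4), in 218 host genes. The other summits lay in promoter windows (530), between genes (353) or in exons (43). The same rule covers 30.4% of the bases of the 6 nuclear chromosomes, so introns held a smaller share of the summits of this list than of the bases. With the 1202 strongest peaks of replicate 2 alone in its place, 372 of 1202 summits were intronic. That share was not below the share of the bases. As many peaks of replicate 1 alone gave 280 intronic summits, so the smaller share was seen in replicate 1 and not in replicate 2. Peak signal was not used to assign a location. The peak lists of the 2 biological replicates differed. A peak of replicate 2 overlapped 28 of the 276 (10.1%, against 9.73% of all IDR peaks). At those 372 intronic summits of replicate 2 alone, the sequence features described below were not enriched over flanks. How well the libraries of either replicate worked was not tested.

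The data came from chromatin immunoprecipitation and sequencing (ChIP-seq) of whole L1 larvae, the stage that follows hatching, of Caenorhabditis elegans strain OP75. These worms have the genotype unc-119(ed3) III; wgIs75, in which the wgIs75 transgene supplies ELT-3 with GFP and FLAG fused to its C terminus, and the larvae were of mixed sex. All 3 libraries belonged to 1 group of 2 biological replicates, and replicate 2 was made of 2 technical libraries with a joint alignment, counted as 1 replicate. There was no comparison group, and the antibody field of the labels names only elt-3. Chromatin of all tissues was mixed, so a site bound in few cells and a site bound weakly in many cells cannot be told apart. The 276 peaks were spread over the chromosomes, from 40 on each of I and III to 58 on X, and for each of the 6 chromosomes the share of intronic bases lay inside the exact interval of its share of the peaks.

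ELT-3 belongs to the GATA family, zinc-finger proteins named for the short DNA word they bind. In worms, ELT-3 is known from the epidermis, where it acts below ELT-1 in the formation of the tissue that secretes the cuticle. Introns can carry enhancers, which are stretches of DNA that bind transcription factors and act on a promoter at a distance, and also promoters of shorter transcripts and of small RNA genes nested in the host gene. GATA factors are known to bind such intronic elements, including elements in their own genes.

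The GATA word was searched as the form AGATAA, as TGATAA, or as either with G in place of the final base (that is, AGATAG, with its partner form TGATAG), on either strand within 50 bp of the summit. Overlapping words were each counted. The following windows are from strong peaks that hold it. They are from the plus strand of WBcel235 (ce11), 5′ to 3′, with the summit in the middle and GATA words or their reverse complements in capitals. Each lies in an intron of the gene named.
mom-1 (chrX:6296522-6296622): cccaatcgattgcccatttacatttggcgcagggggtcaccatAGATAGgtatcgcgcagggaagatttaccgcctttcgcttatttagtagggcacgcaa
elt-3 (chrX:13937496-13937596): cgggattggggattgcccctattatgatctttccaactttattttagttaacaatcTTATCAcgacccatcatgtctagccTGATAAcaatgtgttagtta
D2023.3 (chrV:11802583-11802683): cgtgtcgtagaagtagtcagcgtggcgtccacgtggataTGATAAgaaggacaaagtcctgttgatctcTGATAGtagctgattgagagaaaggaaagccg
Y48C3A.5 (chrII:13293118-13293218): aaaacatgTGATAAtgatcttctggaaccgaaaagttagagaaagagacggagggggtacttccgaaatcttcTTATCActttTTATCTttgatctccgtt
F45E1.4 (chrX:7987051-7987151): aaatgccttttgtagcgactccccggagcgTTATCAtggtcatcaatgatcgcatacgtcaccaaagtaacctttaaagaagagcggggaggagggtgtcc

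The mom-1 window holds a single word close to the summit, whereas the elt-3 window holds 2 words in opposite orientation, TTATCA and TGATAA. Windows with 3 or 4 words are shown next, because clustered words stand out by eye. In arrd-10 and paqr-1 pairs of words overlap, as AGATAAGATAA and TGATAGATAA.
arrd-10 (chrII:12942657-12942757): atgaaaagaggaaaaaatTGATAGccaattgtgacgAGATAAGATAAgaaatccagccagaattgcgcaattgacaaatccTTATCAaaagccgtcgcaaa
paqr-1 (chrIV:6555084-6555184): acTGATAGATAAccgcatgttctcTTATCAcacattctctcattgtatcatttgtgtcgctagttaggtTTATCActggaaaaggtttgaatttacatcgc
slc-25A21 (chrX:16192659-16192759): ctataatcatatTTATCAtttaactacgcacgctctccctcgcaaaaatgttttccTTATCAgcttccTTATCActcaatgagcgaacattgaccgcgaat

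Strong intronic peaks without a GATA word, in any of the forms searched, are shown next. Each of these windows still holds the bare core GATA or its reverse complement TATC, next to other bases. When the core alone was searched, 66.3% of intronic summits and 46.4% of their flanks held it. The windows in ifbp-1 and epg-9 also hold the word GAGAGA or its reverse complement TCTCTC.
ifbp-1 (chrV:13371543-13371643): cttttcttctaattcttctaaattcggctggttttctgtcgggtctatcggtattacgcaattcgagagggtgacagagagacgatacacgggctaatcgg
epg-9 (chrIV:2602129-2602229): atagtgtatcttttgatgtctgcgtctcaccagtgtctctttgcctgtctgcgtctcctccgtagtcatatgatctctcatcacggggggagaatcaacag
Y41G9A.17 (chrX:2997066-2997166): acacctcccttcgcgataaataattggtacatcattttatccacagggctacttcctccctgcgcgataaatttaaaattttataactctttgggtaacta

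GATA words were found at nearly every second intronic summit. A word was present at 137 of 276 intronic summits (49.6%, exact interval 43.6 to 55.7), against 38.9% of all IDR summits and 18.7% of all windows of the same length centred on an intronic base. Across the whole genome, 19.8% of windows of this length held one. In windows of equal size centred 500 bp to the right of the same summits, 61 of 276 held a word (22.1%). In 107 peaks the summit had a word and its flank had none, and in 31 it was the reverse, a difference of 27.5 percentage points (two-sided exact McNemar test, p = 5.49e-11). A single word was present at 84 summits, 2 words at 33, 3 words at 16 and 4 words at 4.

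The excess was found in replicate 1 and not in replicate 2. When the IDR list was replaced by the 1202 strongest peaks called on replicate 1, 280 summits were intronic and 47.5% held a GATA word, against 21.4% of flanks (exact McNemar test, p = 2.06e-10). Among as many peaks of replicate 2, 372 summits were intronic, and 21.0% held a word against 21.8% of flanks (exact McNemar test, p = 0.856). The difference between the replicates was not tested. Peaks of replicate 2 were all 596 bp wide, while each intronic peak of the IDR list was 296 bp wide.

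The words crowded at the summit itself. Intronic summits had 40.2 GATA words per 100 summits in the central 50 bp, 34.8 in the neighbouring bin on either side, and a mean of 14.1 in the 10 bins that lay 300 to 500 bp away, where single bins ran from 11.96 to 16.7. Among the 137 summits with a word, the nearest word was a median of 19 bp from the summit, and for 90 of them it was within 25 bp. These summits were picked for a word within 50 bp, which bounds the distance, so these 2 values do not measure crowding. All 4 forms were more frequent at the summits than in windows on intronic bases at large. TGATAA was at 77 summits (27.9%, exact interval 22.7 to 33.6, against 8.75% of intronic windows), TGATAG at 38 (13.8%, 9.93 to 18.4, against 3.34%), AGATAG at 35 (12.7%, 8.99 to 17.2, against 2.42%) and AGATAA at 30 (10.9%, 7.45 to 15.2, against 5.88%).

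**Figure D1:**
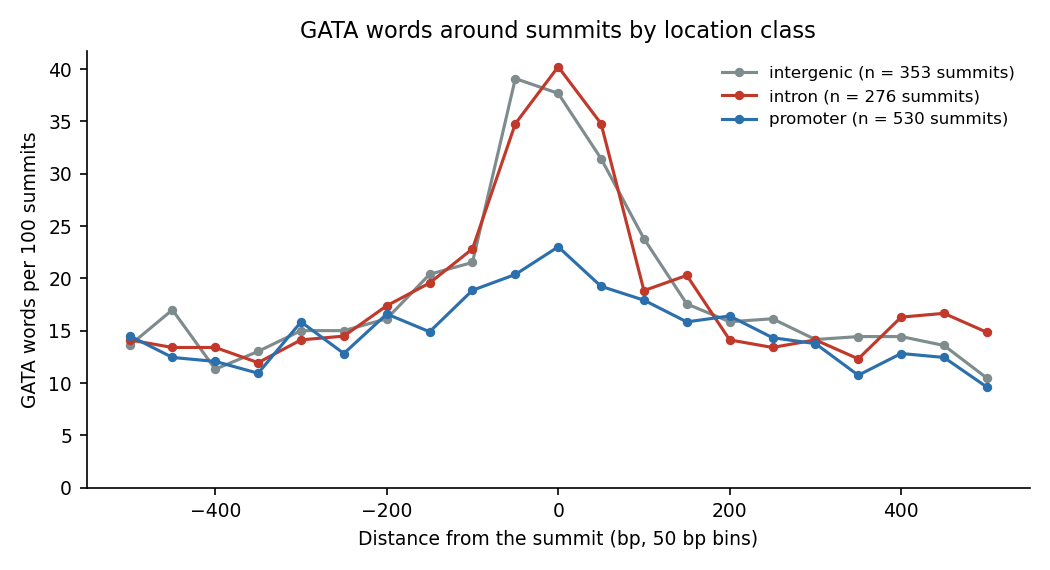
GATA words per 100 summits (y axis) by distance from the summit in 50 bp bins (x axis), for summits in introns, promoter windows and intergenic sequence. Intronic summits reach 40.2 words per 100 summits in the central bin against a mean of 14.1 at 300 to 500 bp, intergenic summits 37.7 against 13.7, and promoter summits 23.02 against 12.5.

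Intronic summits held GATA words more often than promoter summits. The share in promoters was 28.3% (150 of 530), which gave an odds ratio of 2.49 (95% interval 1.82 to 3.42, adjusted p = 1.88e-08 over 6 tests, two-sided Fisher's exact test). The windows also differed in base composition, with a median GC content of 43.6% in introns and 47.5% in promoters. Among windows with GC content at or under the list median of 44.6%, the shares were 63.9% in introns and 54.2% in promoters (odds ratio 1.49, adjusted p = 0.429, Fisher's exact test). Above it they were 27.1% and 12.5% (odds ratio 2.60, adjusted p = 0.00435, Fisher's exact test). The call was lost in the AT-richer windows. In replicate 2 alone the odds ratio was 0.766 (adjusted p = 0.225, Fisher's exact test).

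No difference from intergenic summits was detected. Of those, 164 of 353 held a word (46.5%), an odds ratio of 1.14 for introns with a 95% interval of 0.818 to 1.58 (adjusted p = 0.704, Fisher's exact test). In the AT-richer windows the odds ratio was 1.21 and in the GC-richer ones 1.17.

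**Figure D2:**
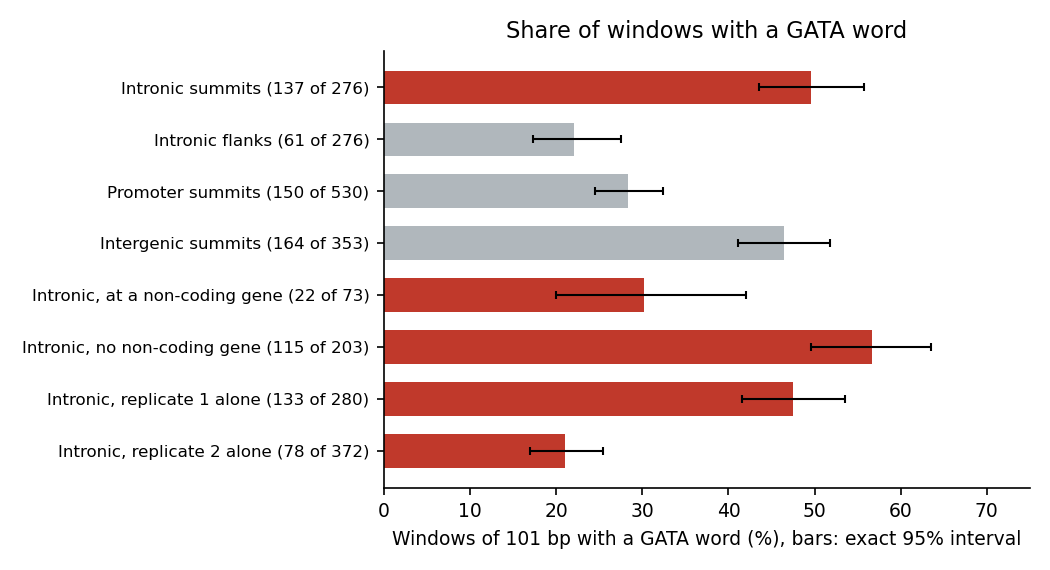
Share of windows, 50 bp to either side of a centre base, with a GATA word (x axis, %) for the sets named on the y axis, with exact 95% Clopper-Pearson intervals; red bars are intronic summits and grey bars are flanks or other classes. Intronic summits (49.6%) stand above their flanks (22.1%) and promoter summits (28.3%), next to intergenic summits (46.5%), while intronic summits of replicate 2 alone (21.0%) are level with the flanks.

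A GA repeat was also searched, and its share at intronic summits was near that of the whole IDR list. GAGAGA, on either strand, lay within 50 bp of 85 intronic summits (30.8%, exact interval 25.4 to 36.6), against 27.1% of all IDR summits and 4.25% of windows on intronic bases. The flanks held it at 13 of 276 (4.71%), and 81 peaks had it at the summit but not in the flank, against 9 the other way round (two-sided exact McNemar test, p = 1.28e-15, a comparison chosen after the data were seen). The share across the genome was 5.18% of windows. In replicate 2 alone the word was at 6.72% of intronic summits and 6.72% of flanks (exact McNemar test, p = 1). Both GAGAGA and a GATA word were present at 35 intronic summits. A GATA word was thus at 41.2% of intronic summits with GAGAGA and at 53.4% of those without it, a difference that was not tested. Promoter summits held GAGAGA in 23.8% of cases and intergenic summits in 29.7%, and the differences between classes were not tested.

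The signal of the 276 peaks ran from 35.5 to 143.0, with a median of 47.0 and quartiles of 40.8 and 56.2. It is the authors' own value per peak, whose scale holds only within a list. Of the intronic peaks 45.7% lay above the median of the IDR list, which 50% of all its peaks exceed, against 51.5% of promoter peaks and 51.8% of intergenic peaks. Neither difference passed (odds ratios 0.791, 95% interval 0.584 to 1.07, and 0.781, 0.562 to 1.08, Fisher's exact tests, adjusted p = 0.255 for both). Above the upper quartile of the list the difference from promoters did pass, with 19.2% of intronic against 27.5% of promoter peaks (odds ratio 0.625, adjusted p = 0.0293, Fisher's exact test). Among the 100 strongest IDR peaks 15 were intronic, against 22.96% of the whole list. Promoter peaks made up 51 of these 100 (44.1% of the list) and intergenic peaks 31 (29.4% of the list), and these counts were not tested.

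The 5 strongest intronic peaks lay in let-607, mom-1, elt-3, pck-2 and D2023.3. The strongest was in the first intron of let-607, which encodes a bZIP transcription factor of the CREB3 class, 707 bp from the gene's 5′ end (WBcel235 chromosome I, summit 6574711). Its signal was 143.0 in the IDR list and 140.3 in replicate 1, and it held no GATA word. The second, in the last of 7 introns of mom-1 (X, summit 6296572), had 142.5 in the IDR list and 141.9 in replicate 1. MOM-1 is the worm Porcupine, an acyltransferase that Wnt ligands need before secretion. elt-3 followed with 131.6 and 129.02 (X, summit 13937546), and pck-2, a phosphoenolpyruvate carboxykinase of gluconeogenesis, with 118.0 and 117.2 (I, summit 7867193). The peak in D2023.3 had a signal of 105.9 in the IDR list and 106.2 in replicate 1. No replicate 2 peak overlapped any of these 5, and in replicate 1 they ranked between 12 and 42 of 10775.

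The next 15 peaks had signals from 81.3 to 101.1. Their host genes included nhr-19 (90.4) and nhr-31 (81.7), which encode nuclear hormone receptors, and jun-1 (83.8), an AP-1 transcription factor. Among the other hosts, aakg-1 (87.2) encodes a gamma subunit of the energy sensor AMPK, pmt-2 (81.3) a methyltransferase of phosphatidylcholine synthesis, and eif-2Bdelta (83.5) a subunit of the exchange factor for translation initiation factor eIF2. epg-9 (92.8) acts in autophagy, ppfr-1 (86.7) encodes a regulatory subunit of protein phosphatase 4, and slc-25A21 (82.1) a carrier of the mitochondrial family. The remaining peaks lay in ifbp-1 (101.1), Y48C3A.5 (100.8), D2030.2 (98.2), F45E1.4 (94.0), Y41G9A.17 (92.6) and Y43F8B.2 (85.9). Of the 20 strongest intronic peaks, 10 held a GATA word.

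Signal varied little between peaks with and without a GATA word. The median was 46.1 for the 139 peaks without a word and 47.5 for the 137 with one, and both sets spanned nearly the whole range. Peaks with 1, 2, 3 and 4 words had medians of 47.2, 46.5, 51.2 and 63.0. The last value rests on 4 peaks, in arrd-10 (77.6), an arrestin-domain gene, paqr-1 (69.3), a homologue of adiponectin receptors, ugt-25 (56.7), a UDP-glucuronosyltransferase gene, and blmp-1 (40.8), which encodes a zinc-finger factor of epidermal development and molting.

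**Figure D3:**
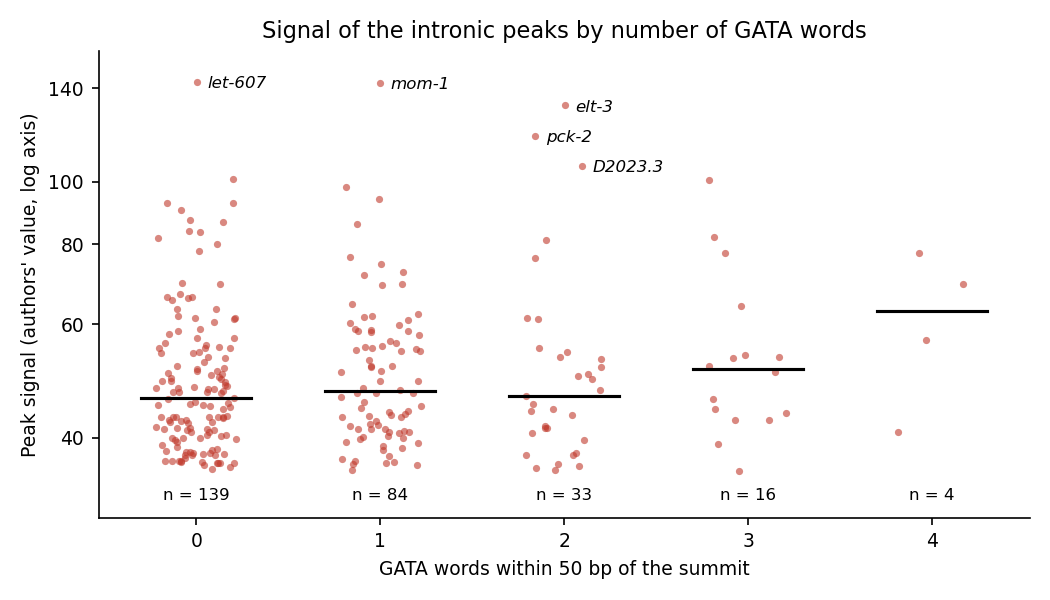
Peak signal as deposited (y axis, log scale) against the number of GATA words within 50 bp of the summit (x axis) for the 276 intronic peaks; each point is a peak and black lines are medians. Medians lie between 46.1 and 51.2 from 0 to 3 words, and the 5 strongest peaks, which are named, hold 0, 1 or 2 words.

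Few intronic peaks were overlapped by a peak of replicate 2. A replicate 2 peak overlapped 28 of 276 intronic peaks (10.1%), against 9.73% of all IDR peaks. Promoter peaks had a share of 9.43% (odds ratio 1.08, 95% interval 0.640 to 1.80, adjusted p = 0.962, Fisher's exact test) and intergenic peaks one of 10.2% (odds ratio 0.994, 0.567 to 1.73, adjusted p = 1, same test), so no difference was detected. In 16 of the 28 the summit itself lay inside the replicate 2 peak. Leading the overlapped peaks were those in D2030.2 (IDR signal 98.2), Y41G9A.17 (92.6), ppfr-1 (86.7), Y43F8B.2 (79.9, its weaker peak), let-526 (66.8), which encodes an ARID subunit of SWI/SNF chromatin remodelling complexes, and the nuclear receptor gene nhr-48 (66.1). Of these 6, the D2030.2 peak alone held a GATA word, and over the 28 peaks 11 did. Every intronic peak overlapped a replicate 1 peak, as did all 1202 IDR peaks. Of the 276, 269 matched one of the 1202 strongest peaks there, against 1171 of all 1202 IDR peaks. The IDR list derives in part from the replicate 1 list, so this overlap is not an independent measure.

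Summits lay in long introns, and in first introns more often than the length of these would give. The median intron that held a summit was 2937 bp long, where intron numbers and lengths come from the host transcript with the most exon sequence. The median over all intronic bases that meet the rule was 994 bp. Introns over 5000 bp held 87 summits (31.5%, exact interval 26.1 to 37.4) and 13.9% of such bases, and introns up to 500 bp held 40 summits (14.5%, 10.6 to 19.2) and 27.2% of the bases. The first intron held 90 summits (32.6%, 27.1 to 38.5), against 23.5% of the bases, and introns from the fifth on held 80 (29.0%, 23.7 to 34.7) against 37.3%. When an intron counted as the first if it was so in any transcript, the share rose to 51.1%, and the share of bases to 32.4%. With promoter windows at every transcript start, first introns held 27.6% of the 203 summits left, closer to the 23.5% of bases under the main rule. Within introns, 48 summits lay in the first 25% of the length from the 5′ splice site (17.4%, 13.1 to 22.4, against 24.8% of the bases), and in each of the other 3 stretches of equal size the interval of the summits included the share of the bases. The median distance from the gene's 5′ end was 3354 bp, and the farthest summit was 48477 bp away.

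**Figure D4:**
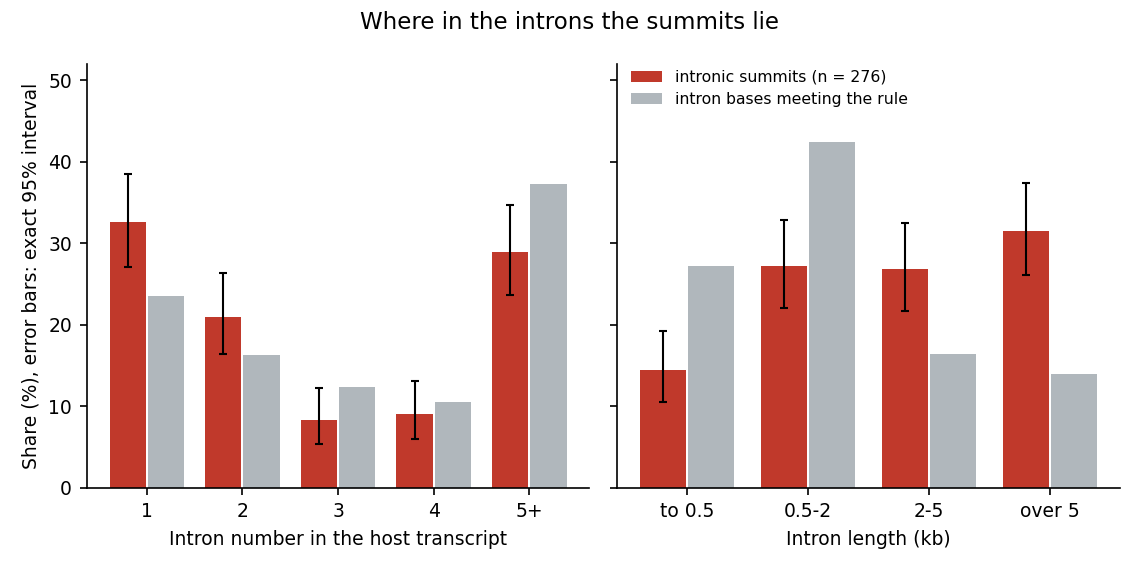
Share of the 276 intronic summits (red, exact 95% intervals) and of all intronic bases that meet the rule (grey) by intron number (left) and intron length in kb (right). Introns over 5 kb hold 31.5% of summits and 13.9% of bases, and first introns 32.6% and 23.5%.

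Part of the intronic set sits at starts of shorter transcripts. The rule uses 1 start per gene, and 73 of 276 summits (26.4%, exact interval 21.3 to 32.1) fell in the window of 1000 bp upstream to 200 bp downstream of some other protein-coding transcript start, against 11.0% of intronic bases. GATA words were present at 39 of these 73 (53.4%) and at 98 of the other 203 (48.3%). The difference was not detected, with an odds ratio of 1.23 (95% interval 0.694 to 2.18, adjusted p = 0.496, Fisher's exact test). This test and the one on non-coding genes were added after the data were seen and adjusted together. Of the genes with 3 or more intronic peaks, elt-3, pkg-2, ccch-1, nhr-31, sma-9, zfp-1 and Y111B2A.12 had at least 1 in such a window. Among the 20 strongest peaks those in ifbp-1 (101.1), D2030.2 (98.2) and Y43F8B.2 (85.9) did.

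Another 73 summits, some of them the same, lay in an exon or promoter window of a non-coding gene (26.4%, against 14.5% of intronic bases). These were annotated mostly as ncRNA (50 summits), snoRNA (15) and tRNA (10), and a summit may be near several. GATA words were less frequent there, at 22 of 73 (30.1%) against 56.7% of the other 203, an odds ratio of 0.331 (95% interval 0.177 to 0.604, adjusted p = 0.000239, Fisher's exact test). The median GC content was 49.5% at these summits and 41.6% at the rest. Within windows of GC content at or under the list median the shares were 46.2% and 67.1% (odds ratio 0.422, Fisher's exact test, p = 0.0953 adjusted over both ranges), and above it 21.3% and 31.7% (0.586, p = 0.277, same test). The call was lost in both ranges. The 27 summits near a snoRNA, snRNA or tRNA gene, which encode the small RNAs of ribosome maturation, splicing and translation, had a word in 5 cases (18.5%, exact interval 6.30 to 38.1), a median GC content of 54.5% and a median intron of 360 bp. With summits near other transcript starts or non-coding genes set aside, 149 intronic summits were left, and 55.7% of them held a GATA word against 22.1% of their flanks (exact McNemar test, p = 1.41e-08).

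Several genes carried a row of intronic peaks. One peak was found in 178 host genes, and 40 genes held 98 peaks between them. The 13 genes with 3 or more, which held 44, were led by pkg-2, a cGMP-dependent protein kinase gene (WBcel235 IV, 8520894 to 8538187), with 5 peaks. Their signals were 35.7, 50.2, 50.2, 55.2 and 56.6, and 4 of the 5 held a GATA word. In elt-3 (X, 13934874 to 13941216) 4 peaks had signals of 49.0, 57.2, 69.2 and 131.6, and 3 held a word. The transgene also carries elt-3, and signal from the native gene and from the transgene cannot be told apart in these lists. pqn-41, which encodes a glutamine- and asparagine-rich protein that acts in the death of the male linker cell, had 4 peaks with signals of 44.8, 54.4, 66.1 and 78.1, all in its intron 14 of 10372 bp (III, 1905958 to 1939570). None of these 4 held a GATA word. ccch-1, a CCCH zinc-finger gene, had 4 peaks with signals of 40.8, 41.4, 50.8 and 55.5, of which 1 held a word.

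**Figure D5:**
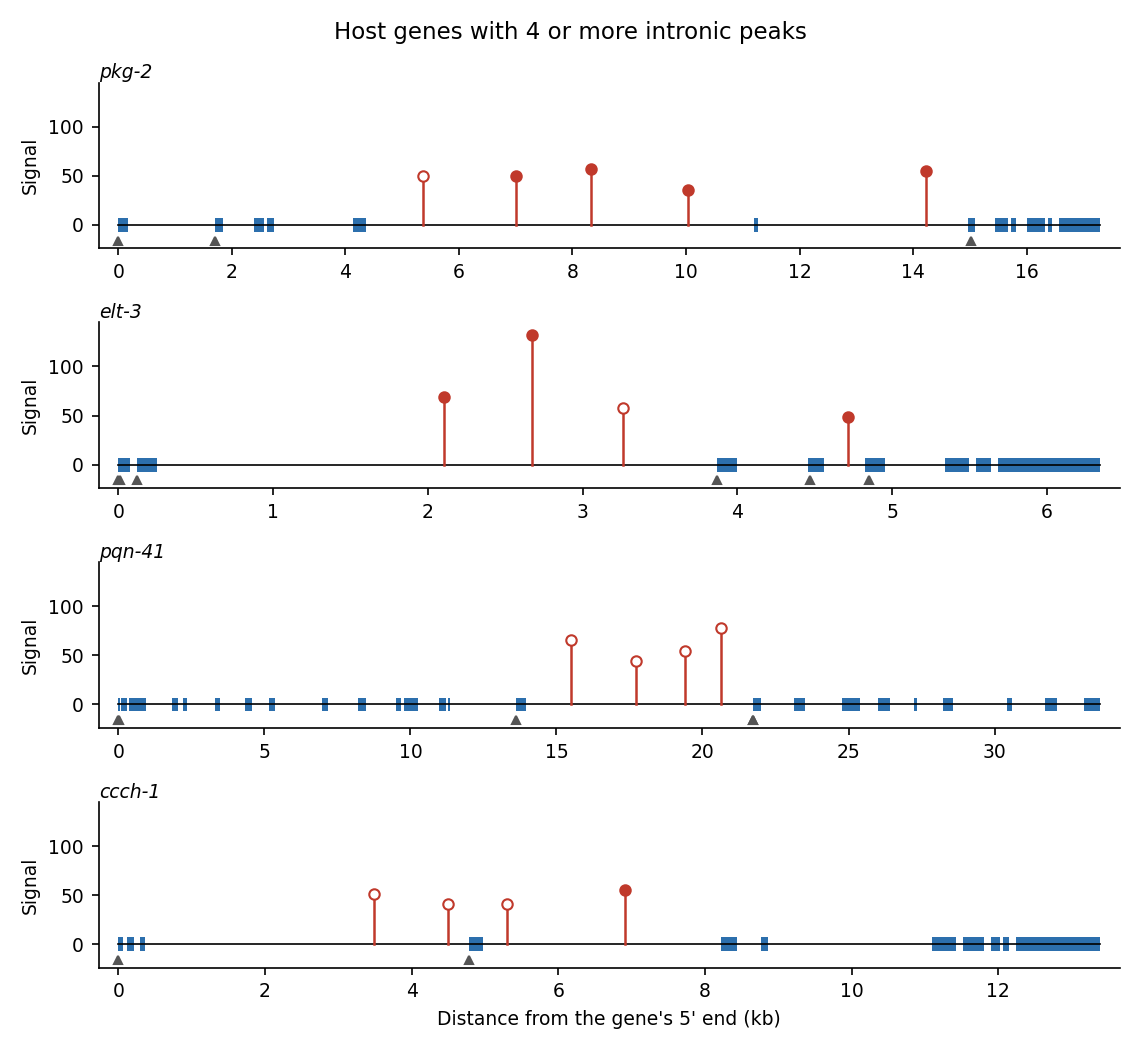
Peak signal (y axis, as deposited) along the 4 genes with 4 or more intronic peaks, by distance from the gene's 5′ end in kb (x axis); blue boxes are exons of any transcript, grey triangles transcript 5′ ends, filled circles summits with a GATA word and open circles summits without one. The peaks of pkg-2 and elt-3 mostly hold a word (4 of 5 and 3 of 4), those of pqn-41 none.

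Another 9 genes had 3 intronic peaks each. nhr-31, a nuclear receptor gene known for its part in the excretory cell, had signals of 43.9, 53.1 and 81.7, with GATA words at 2 of the 3. zfp-1, the homologue of the chromatin factor AF10, had 58.7, 58.9 and 72.5, with a word at the strongest only. In let-526 the signals were 36.2, 36.4 and 66.8, with words at the 2 weaker peaks. hlh-30, the homologue of the autophagy and lysosome regulator TFEB, had 43.3, 49.3 and 58.8, with words at 2 of the 3. sma-9, a zinc-finger gene of the Sma/Mab body size pathway, had 36.5, 47.6 and 61.0, with a word at the strongest only. daf-5, a Ski-related gene of dauer formation, had 38.02, 46.9 and 61.3 and held no word, and neither did the 3 peaks of ppfr-1 (42.3, 49.0 and 86.7). aakg-1 (50.8, 55.7 and 87.2) and Y111B2A.12 (36.5, 49.3 and 69.7) held a word at 1 peak each.

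Host genes were long. Their median length was 7596 bp, against 2266 bp for other protein-coding genes with intronic bases that meet the rule. Of all 17551 such genes 1.24% were hosts, and the share climbed with the amount of intron, from 0.104% of genes with up to 500 such bases to 7.596% of genes with more than 5000. A promoter peak was also present in 24 of the 218 host genes (11.0%), against 3.36% of other protein-coding genes. These shares were not tested, and gene length differs between the sets.

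Host genes were also counted in lists of related genes, with no test on any list. The background is 1.24% of all genes with eligible intron, and it depends on the amount of intron: 0.104% of genes with up to 500 eligible bases, 0.621% from 500 to 2000, 2.28% from 2000 to 5000 and 7.596% above 5000. The median gene fell in the range of 2000 to 5000 bases for GATA factors (2202), epidermal regulators (2672), heterochronic genes (2264) and insulin and stress regulators (2954). Of the GATA factor genes 2 of 9 with eligible introns were hosts, elt-3 and egl-27. The egl-27 protein has a zinc finger of the GATA type, and of its 2 intronic peaks, both with a GATA word, the stronger had a signal of 77.6. Epidermal and seam cell regulators had 3 hosts of 24, namely the molting receptor gene nhr-23 (signal 55.1), the timing gene lin-14 (47.0) and blmp-1, and the last of these alone held a word. lin-14 and blmp-1 were also the 2 hosts among 15 heterochronic genes, which time larval development. Insulin and stress regulators had 5 hosts of 30, with hlh-30, the kinase gene pdk-1 (61.3), the Nrf factor gene skn-1 (59.1) and atf-7 (58.3) ahead of the TOR kinase gene let-363 (35.8). In each of these lists the share of hosts was above 2.28%, on counts of 2 to 5 genes. For every list, this background is that of the range of its median gene, and genes with more intron have a higher one. Hosts made up 22.2% of the GATA factor list, 12.5% of epidermal regulators, 13.3% of heterochronic genes and 16.7% of insulin and stress regulators. Each of these shares was also above 7.596%, on the same small counts. Whether any list exceeds what its amount of intron would give was not tested.

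Nuclear hormone receptor genes had a median of 802 eligible bases, in the range with a background of 0.621%. They had 9 hosts of 264 (3.41%) with 12 peaks, led by nhr-19, nhr-31, nhr-48 and nhr-46 (signal 55.2). Genes of the extracellular matrix had 3 hosts of 26, the perlecan gene unc-52 (45.4), the peroxidasin gene pxn-1 (37.6) and the hemicentin gene him-4 (37.2), none with a GATA word. Epidermal attachment and junction genes had 2 of 23, mup-4 (49.6) and the intermediate filament gene mua-6 (41.3). Cuticle collagen genes of the col class had 2 hosts, col-159 (45.1) and col-85 (37.6), or 1.74% of those with eligible introns, the Wnt pathway 1 of 28 (mom-1), the Sma/Mab pathway 1 of 18 (sma-9) and vesicle traffic and secretion 1 of 28 (let-607). There was no host among 36 axon guidance and cell migration genes, 28 potassium channel genes, 63 homeobox genes of the ceh class or 11 Hox and Hox cofactor genes. The axon guidance and potassium channel lists had medians of 5267 and 7885 eligible bases, in the range with a background of 7.596%. Medians of the ceh, Wnt and vesicle lists (1070, 1896 and 757) fell in the range with 0.621%. Those of the Hox, matrix, attachment and Sma/Mab lists (4374, 2736.5, 4798 and 2433.5) fell in the range with 2.28%. The col median (106) fell in the range with 0.104%. Against such backgrounds, the lack of a host in lists as short as ceh and Hox carries little information.

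The members next to the edges of the rule had ordinary values. Just inside, a summit in E01G4.3 lay 9 bp beyond a promoter window (signal 47.0) and one in fat-6, a fatty acid desaturase gene, 16 bp beyond (51.5). Summits in mix-1 (56.1) and twk-34 (44.4) lay 3 bp from an exon. Just outside, summits in wht-3 (36.6) and hrpk-1 (44.5) were 1 bp within a promoter window, and those in ccd-5 (52.3) and crh-1 (58.6) were 1 and 2 bp within an exon.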

How the data were processed

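The files are peak lists in the narrowPeak layout. Per the deposited records of derived files, 1 list was called on biological replicate 1 (10775 peaks), 1 on replicate 2 (4080 peaks, of which 4055 nuclear were used), 1 on both together (10082 peaks), and the IDR list of 1202 peaks derives from all 3. The signal of each peak (column 7) is the authors' deposited value, on a scale that differs between lists. The aligner and caller are unnamed (not given in the sources used here). Lists hold no read counts, so depth is unknown, and intervals cover counting error over peaks only. The ce11 lists were used, which share the assembly WBcel235 with the RefSeq genome and the Ensembl annotation, and 0 peaks reached past a chromosome end. The ce10 lists were not used.

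Positions were compared with every base of the nuclear chromosomes that meets the same rule. For motif shares, summits and their flanks entered an exact McNemar test (two-sided), and location classes were compared by two-sided Fisher's exact tests, with Benjamini-Hochberg adjustment over 6 tests and a threshold of 0.05. Odds ratios are conditional estimates with exact 95% intervals, and shares have Clopper-Pearson intervals. The p-values describe peaks of 1 list, which share libraries and in part host genes, and not a population of replicates. Scripts ran in Python 3.11.15 with scipy 1.17.1, pandas 2.3.3, numpy 2.4.6 and matplotlib 3.10.9, and the motif search, both tests and the location rule were tested on simulated data.

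Printed windows are from the strongest peaks outside chromosome I with and without a GATA word, and from those with most words. Named genes follow a rule: hosts of the 20 strongest intronic peaks, hosts of 3 or more peaks, the 6 strongest peaks overlapped by replicate 2, peaks with 4 or more GATA words, up to 4 hosts per gene list and the peaks nearest the edges of the rule. let-363 was named beyond it, after its value was seen. The peak set and the gene lists were chosen with earlier results of these data known. Alternatives covered windows, motifs, flanks, annotation, signal cut-offs, 1 peak per host and each replicate alone. The GAGAGA search, the split by GC content, the promoter and intergenic comparisons with 1 peak per host, and the subsets at other transcript starts and non-coding genes were added after the data were seen.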

Additional observations from a re-analysis of the deposited data

How the results depend on the processing

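The excess of GATA words at intronic summits over flanks kept its direction and passed the exact test under every alternative but replicate 2 alone, with differences from 17.03 to 36.5 percentage points. With 1 replicate left out, the difference was between -0.806 and 26.1 points, and that of GAGAGA between 0 and 26.8 points. The odds ratio against promoters then ran from 0.766 to 2.29 and against intergenic summits from 0.859 to 1.03, while the number of intronic summits ran from 280 to 372 and the share in first introns from 28.5 to 34.3%. Apart from these, the odds ratio against promoters ran from 1.49, in windows of GC content at or under the list median, to 3.48. The odds ratio against intergenic summits, never past the threshold, fell below 1 with 100 bp each side (0.990), the 4-letter core GATA (0.891) and TGATAA alone (0.952). The odds ratio of overlap with replicate 2, also never past the threshold, was on the other side of 1 against promoters with windows at every transcript start (0.885), with all biotypes (0.970) and with the summit inside the replicate 2 peak (0.845), and against intergenic peaks with all biotypes (1.12) and with windows from 500 bp upstream (1.05). The signal comparison with promoters passed only at the upper quartile (0.625). The share in first introns moved to 51.1% when any transcript counted, and was 27.6% with windows at every transcript start. The lower GATA share near non-coding genes passed in neither range of GC content (odds ratios 0.422 in AT-richer and 0.586 in GC-richer windows). The causes were not tested. With windows at every transcript start, or windows and exons of all biotypes, 203 summits were intronic. No paired analysis of samples was possible because there was 1 group. Read depth is unknown, so weak peaks of replicate 2 cannot be weighed by it.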
